A study of Nematostella vectensis with 6 samples.

Results

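The 200 most abundant transcripts of *Nematostella vectensis*, a burrowing sea anemone, were examined in pinching and in steady-state animals. Abundance was measured as CPM, the count of a gene model divided by the sum of all counts of its library and scaled to 1000000. Of the 24525 gene models counted, the 200 with the highest mean CPM over the 6 libraries were selected. How much of each library they held is therefore a description, while the difference between the groups was not used to select them. The 2 gene models just inside the cut averaged 805.4 and 803.3 CPM, and the 2 just outside averaged 801.9 and 801.0 CPM.

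Pinching animals were collected in gravel while the body column was constricting above the physa, which is the rounded aboral end of the polyp, and steady-state animals were also kept in gravel and were not constricting. Each group had 3 libraries of pooled individuals, prepared as stranded mRNA and sequenced as short single reads. The stage of fission at collection was not known. The series description also mentions 3 time points, which the labels of the 6 libraries do not show, so whether libraries of a group were collected at different times is not given in the sources used here. The sample labels give the physa as the tissue, but the protocol for RNA extraction speaks of lysing whole animals, so the material was stated in more than one way. No strain, sex or age was used here, and no treatment other than the gravel was named for either group. The deposited counts summed to between 26381086 and 27343077 in pinching libraries and to between 22423447 and 23818796 in steady-state libraries.

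Transverse fission is a form of asexual reproduction in which the physa is pinched off and both fragments regrow what they lack. In most animal mRNA libraries a small number of genes, such as those for ribosomal proteins, translation factors, cytoskeleton and secreted products, holds a large part of the reads. Because CPM is a share, a large change in 1 abundant transcript alters the share left to every other. Of the 24525 identifiers, 0 matched an entry that carries a gene name, so no role is given to any member, neither the tissue nor any cell type was checked by marker genes, and members are called by their rank in mean CPM. Transcript lengths were not used either, so levels are shares of counts and cannot be compared between genes as amounts of RNA per length. In bulk tissue, fewer cells of a type and less RNA per cell cannot be told apart.

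The 200 transcripts held 42.2, 39.5 and 42.0% of the counts in pinching libraries, against 42.6, 42.9 and 41.1% in steady-state libraries. The group means were 41.2 ± 1.49% in pinching and 42.2 ± 0.945% in steady-state animals (SD, n = 3 each), and the groups overlapped. The difference of -0.97 percentage points was smaller than the spread of the pinching libraries (exact permutation test, two-sided, p = 0.5, where 3 against 3 libraries cannot go below 0.1). Counting error was far smaller than this spread, since the 95% Wilson interval of each share reached at most 0.0205 points to either side. Without pinching replicate 2 the difference was -0.11 points, and without steady-state replicate 3 it was -1.51 points.

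The mean share was lower in pinching animals over the first 10, 50 and 100 ranks, although no difference passed the test after adjustment. The 10 most abundant transcripts held 9.27, 7.82 and 8.68% in pinching libraries, against 9.93, 9.21 and 12.3% in steady-state libraries. These groups overlapped, and the difference was -1.90 points (exact permutation p = 0.2), or -0.98 points without steady-state replicate 3. Without the transcript at rank 2 it was -1.19 points (exact permutation p = 0.1, not adjusted). The 50 most abundant held 22.1, 20.7 and 22.2% in pinching libraries, against 23.5, 23.0 and 23.9% in steady-state libraries. Here every pinching library was below every steady-state library, a difference of -1.80 points at the smallest p the design allows (exact permutation p = 0.1).

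The same separation was found for the 100 most abundant, with 30.2 ± 1.12% in pinching and 31.7 ± 0.224% in steady-state animals (SD, n = 3 each; exact permutation p = 0.1). Adjusted over the 5 nested sets tested (the first 1, 10, 50, 100 and 200 ranks), the exact permutation p-values were 0.8, 0.333, 0.25, 0.25 and 0.625, so none passed 0.1. Without the transcript at rank 2, the difference of the 50 most abundant was -1.08 points (exact permutation p = 0.3). Transcripts at ranks 101 to 200 held 11.03 ± 0.382% in pinching and 10.5 ± 0.802% in steady-state animals, which is less than 1 SD of the steady-state libraries apart.

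**Figure D1:**
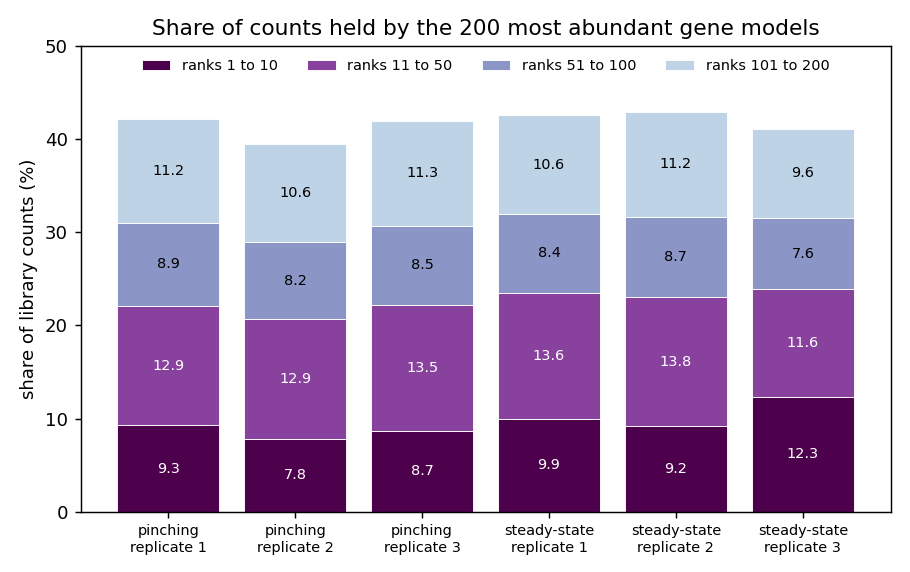
Share of library counts (%, vertical axis) held by the 200 most abundant gene models in each of the 3 pinching and 3 steady-state libraries, with bar segments for ranks 1 to 10, 11 to 50, 51 to 100 and 101 to 200. Whole bars stand between 39.5 and 42.9%, while the segment of ranks 1 to 10 is widest in steady-state replicate 3, at 12.3%.

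Counts were spread over many transcripts in both groups. It took the 341, 412 and 338 most abundant gene models of each pinching library to reach 50% of its counts, against 326, 317 and 370 in steady-state libraries, and these ranges overlapped. Single members held between 0.0803 and 1.71% of the counts on average, with a median of 0.142%. Only 2 members averaged 1% or more, and 161 averaged at least 1000 CPM.

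Much the same transcripts led every library. Each library's own list of 200 contained 192, 189 and 188 of the members in pinching animals, against 191, 190 and 178 in steady-state animals. In all 6 libraries together, 161 members stood in the first 200, and no member ranked below 315 in any library. A further 41 gene models entered the first 200 of at least 1 library, of which 18 did so in a single library. Lists ranked by the pinching mean and by the steady-state mean shared 185 gene models, 92.5% of each.

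Lists also differed between libraries of one group. Own lists of 200 shared 188 to 191 gene models between pinching libraries and 173 to 184 between steady-state libraries, against 167 to 191 between a pinching and a steady-state library. Steady-state replicate 3 stood apart from the others. It held the lowest CPM of 118 members (59%), against 20.4% of all tested gene models, and the highest CPM of 38 members (19%), against 29.8% of all tested gene models. Of the members, 145 were below and 55 above the mean of steady-state replicates 1 and 2, with a median ratio of 0.846 and a range of 0.404 to 3.12.

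Grouped in this way, the members moved in opposite directions in that library. The 118 members lowest in steady-state replicate 3 summed to 21.4, 20.6 and 21.5% in pinching libraries, against 19.5, 21.1 and 15.0% in steady-state libraries. The 38 members highest in it summed to 9.84, 8.61 and 9.28% in pinching libraries, against 11.7, 10.7 and 15.1% in steady-state libraries. The other 44 members lay between 10.3 and 11.3% in every library. These sets were formed from the values of that library, so its place in them is a description. Pinching replicate 1 also took a larger part than the other pinching libraries, with the highest CPM of 76 members (38%), against 13.4% of all tested gene models.

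**Figure D2:**
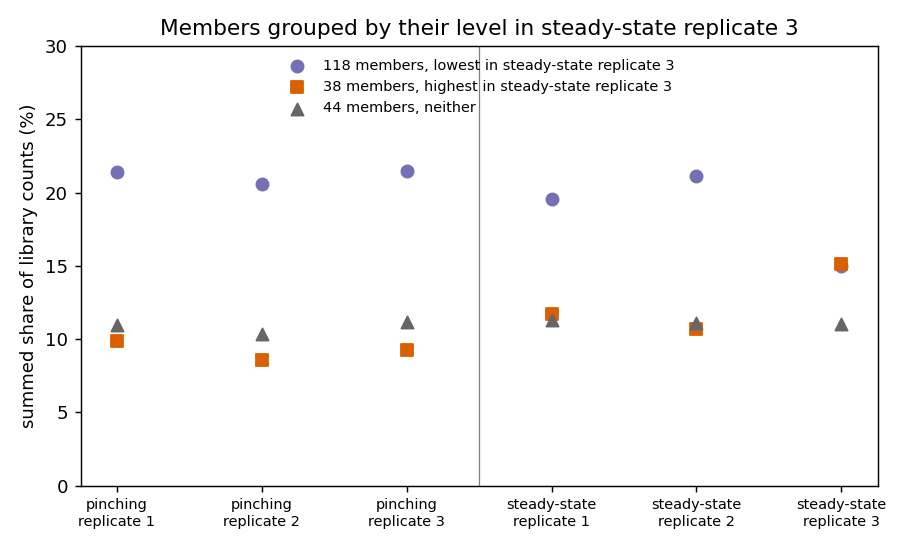
Summed share of library counts (%, vertical axis) in each library for members whose lowest CPM (118 members), highest CPM (38 members) or neither (44 members) was in steady-state replicate 3. In that library the first set stood at 15.0% and the second at 15.1%, while the third lay between 10.3 and 11.3% in every library.

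No member passed the test between pinching and steady-state animals. With edgeR's quasi-likelihood test fitted on the 21345 gene models that had at least 3 counts in all, 0 of the 200 members were called higher and 0 lower at 0.1 after Benjamini-Hochberg adjustment. Over all tested gene models, 0.00937% were called higher and 0.15% lower. The smallest adjusted p among the members was 0.133 (edgeR), reached at ranks 31 and 43. At an unadjusted p under 0.05, edgeR placed 0 members higher and 21 lower (10.5%), against 9.38% of all tested gene models higher and 9.22% lower. Of the next 200 gene models by mean CPM, edgeR placed 1.5% higher and 12.5% lower at that p. Limma-voom also called 0 members, against 0.108% of all tested gene models. At an unadjusted p under 0.05 it placed 0 members higher, against a background of 9.73%, and 21 lower (10.5%), near its background of 9.32%.

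DESeq2's Wald test, run as an alternative, called 19 of the 200 members, all of them lower in pinching animals (9.5%). Its background was 4.22% higher and 7.56% lower of the 16362 gene models that received an adjusted p, so the members' share of lower calls was close to that of all gene models, while no member was called higher. The next 200 gene models by mean CPM likewise had 0 higher and 20 lower calls (10%), so this was not particular to the members. The 19 had DESeq2 log2 fold changes of -1.07 to -0.38 and adjusted p-values of 5.13e-06 to 0.0891. In edgeR, their adjusted p-values ran between 0.133 and 0.255. All 19 were among the 21 above, and 18 of them had their highest CPM in steady-state replicate 3. Without that library DESeq2 called 14 members, all lower (7%, against 5.09% of all gene models with an adjusted p), 12 of them among the 19. Without pinching replicate 1 it called 12, all lower (6%, against 4.62%), and without pinching replicate 2 it called 9, all lower (4.5%, against 2.91%). Without steady-state replicate 2 it called 25 lower (12.5%, against 10%) and 7 higher (3.5%, against 8.29%). The calls over all gene models thus moved in the same direction as those of the members.

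The DESeq2 calls were commonest in the first 50 ranks, without a steady fall further down. Ranks 1 to 50 held 10 of them (20%), 4 of these in ranks 1 to 10. Ranks 51 to 100 held 2 (4%) and ranks 101 to 200 held 7 (7%), against 7.56% lower over all gene models with an adjusted p. The 19 summed to 4.92, 4.36 and 4.86% of the counts in pinching libraries, against 6.80, 6.20 and 9.32% in steady-state libraries. They were selected on this contrast, so the gap between these sums is not a test.

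**Figure D3:**
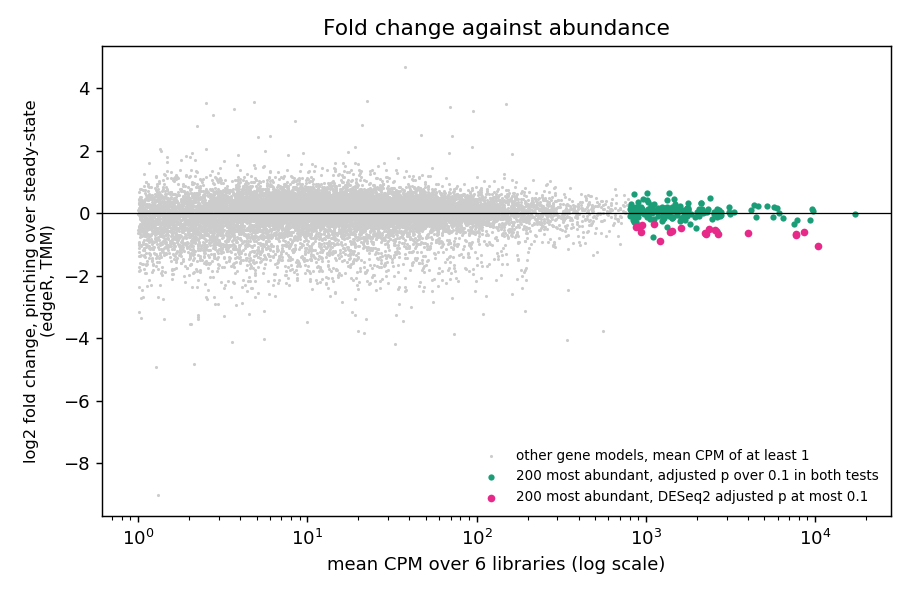
edgeR log2 fold change (vertical axis, pinching over steady-state) against mean CPM (horizontal log axis) for gene models averaging at least 1 CPM, with the 200 most abundant in green and, in pink, the 19 of them that DESeq2 called. The pink points all lie below 0, and the members as a whole lie between -1.04 and 0.64.

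Most members differed little between the groups. Their edgeR log2 fold changes had a median of 0.04, against 0.01 over all tested gene models, and the middle of the distribution ran from -0.12 to 0.14 (quartiles), against -0.41 to 0.31. Of the members, 116 had a positive and 84 a negative value. The range was -1.04 to 0.64, and 1 member (0.5%) reached a size of 1, against 14.6% of all tested gene models. All tested gene models include those with as few as 3 summed counts. Among the next 200 gene models by mean CPM, 3.5% reached that size, and the quartiles were -0.22 and 0.20. Standard errors (SE) were derived from edgeR's test, as the absolute log2 fold change divided by the square root of its F statistic. Over the members they ran between 0.13 and 0.55 with a median of 0.18. The sign of the members' median log2 fold change was not stable. It was -0.11 without steady-state replicate 3, with 30 positive and 170 negative members, and -0.0032 without pinching replicate 1, with 97 positive and 103 negative members.

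Members whose 3 pinching and 3 steady-state values did not overlap were counted in each direction. By CPM, 7 members (3.5%) had all 3 pinching values above all 3 steady-state values, against 18.8% of all tested gene models, and 22 members (11%) were lower, against 9.05%. With CPM scaled by TMM factors, which correct for library composition, the counts were 0 higher, against a background of 14.6%, and 29 lower (14.5%), against a background of 11.3%. Of the next 200 gene models by mean CPM, 10.5% were higher and 10.5% lower by CPM. With TMM factors, 4% of these were higher and 16% lower, so a low share of higher values was not particular to the members. Without steady-state replicate 2, which leaves 3 against 2 libraries and so makes separation commoner, 79 members (39.5%) were higher by CPM, against 24.3% of all tested gene models, and 37 (18.5%) were lower, against 18.8%. Without any other single library, 3.5 to 11.5% of the members were higher, against 21.5 to 26.1% of all tested gene models.

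**Figure D4:**
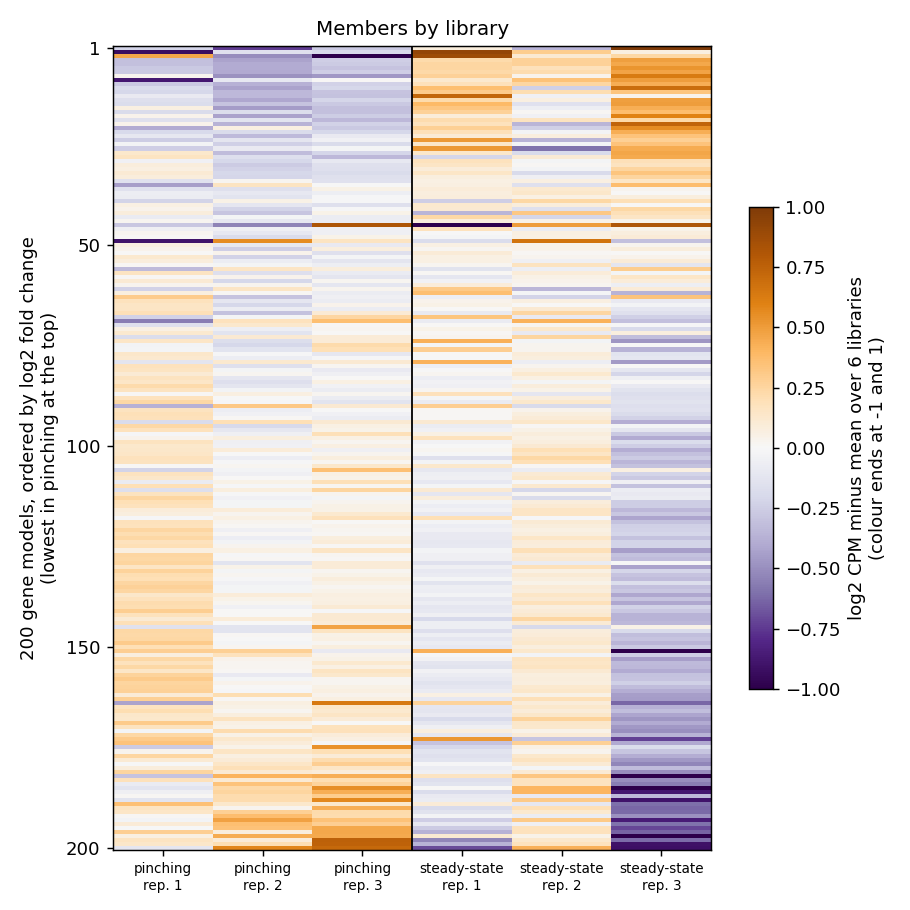
log2 CPM of each of the 200 members in each library, minus its mean over the 6 libraries, with pinching libraries on the left and members ordered by edgeR log2 fold change from the lowest in pinching animals at the top. The last column, steady-state replicate 3, is the lowest library for 118 members and the highest for 38.

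With all 6 libraries, fewer members had lower than higher mean CPM in pinching animals, but their summed difference in CPM was larger. The split by sign was not stable. Without steady-state replicate 3, edgeR log2 fold changes were positive for 30 members and negative for 170, against 116 and 84 with it. Differences in mean CPM were negative for 68 members, summing to -38983 CPM, and positive for 132, summing to 29277 CPM. The 10 most negative made up 64.4% of the negative sum, and the transcript at rank 2 alone made up 18.3% of it. The 10 most positive made up 29.4% of the positive sum. Of the 10 most negative, 9 had their highest CPM in steady-state replicate 3, and of the 10 most positive, 8 had their lowest CPM there.

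The transcript at rank 2, NV2g019306000.1, had the most negative difference in CPM. It measured 7661, 5345 and 7418 CPM in pinching libraries, against 9440, 6923 and 25515 CPM in steady-state libraries. The steady-state mean rests on replicate 3, and the groups overlapped. The edgeR log2 fold change was -1.04 (SE 0.43, adjusted p = 0.251), and DESeq2 gave an adjusted p of 0.084. Over 15 alternative settings its log2 fold change ran between -1.34 and -0.38, and it was -0.38 without steady-state replicate 3.

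Among the 10 most negative, ranks 6, 8, 9, 31 and 43 had log2 fold changes within a narrow range, -0.69 to -0.62, although none passed edgeR's test. These 5 were put together after their values were seen. NV2g012104000.1, at rank 9, measured 6024, 5554 and 6263 CPM in pinching libraries, against 8676, 8971 and 10461 CPM in steady-state libraries. The groups did not overlap, and steady-state replicate 3 was the highest. Its edgeR log2 fold change was -0.69 (SE 0.16, adjusted p = 0.136), with an adjusted p of 2.4e-05 in DESeq2.

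The transcript at rank 6 measured 6995, 6484 and 7181 CPM in pinching libraries, against 9564, 9988 and 11353 CPM in steady-state libraries, a log2 fold change of -0.62 (SE 0.15). That at rank 8 measured 6200.4, 5653 and 6308 CPM in pinching libraries, against 8796, 8695 and 10365 CPM in steady-state libraries, a log2 fold change of -0.65 (SE 0.15). Neither overlapped between the groups, and edgeR's adjusted p-values were 0.151 and 0.139.

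The 3 transcripts at ranks 6, 8 and 9 had similar proportions in all libraries. The ratio of rank 6 to rank 8 lay between 1.09 and 1.15 in all 6 libraries, and that of rank 8 to rank 9 between 0.969 and 1.03. The ratio of rank 6 to rank 9 varied most, at 1.161, 1.168 and 1.147 in pinching libraries, against 1.102, 1.113 and 1.085 in steady-state libraries, and these did not overlap.

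Further down the ranking, rank 31 measured 2085, 1958 and 2148 CPM in pinching libraries, against 3055, 3103 and 3538 CPM in steady-state libraries. Rank 43 measured 1838, 1678 and 1804 CPM in pinching libraries, against 2620.2, 2511 and 3195 CPM in steady-state libraries. Both were separated between the groups, with edgeR log2 fold changes of -0.69 and -0.68 (SE 0.15 each) and DESeq2 adjusted p-values of 5.13e-06 and 2.47e-05. Rank 104, singled out after its values were seen, had the same pattern, at 1171, 1065 and 1103 CPM in pinching libraries, against 1669, 1559.6 and 1702 CPM in steady-state libraries. Steady-state replicate 3 was the highest library for all of these, but the other 2 steady-state libraries were also above every pinching library.

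The remaining transcripts with large negative differences were less even. Rank 21 measured 3934, 2752 and 2795 CPM in pinching libraries, against 4639, 3945 and 5955 CPM in steady-state libraries, so that its groups met without overlapping. Its edgeR log2 fold change was -0.65 (SE 0.20, adjusted p = 0.18), and DESeq2's adjusted p was 0.0228. Rank 10 measured 6168, 6756 and 7129 CPM in pinching libraries, against 10525, 5723 and 8907 CPM in steady-state libraries, and neither test called it. Ranks 5 and 7 overlapped between the groups as well, with edgeR log2 fold changes of -0.23 each (SE 0.17 and 0.15).

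**Figure D5:**
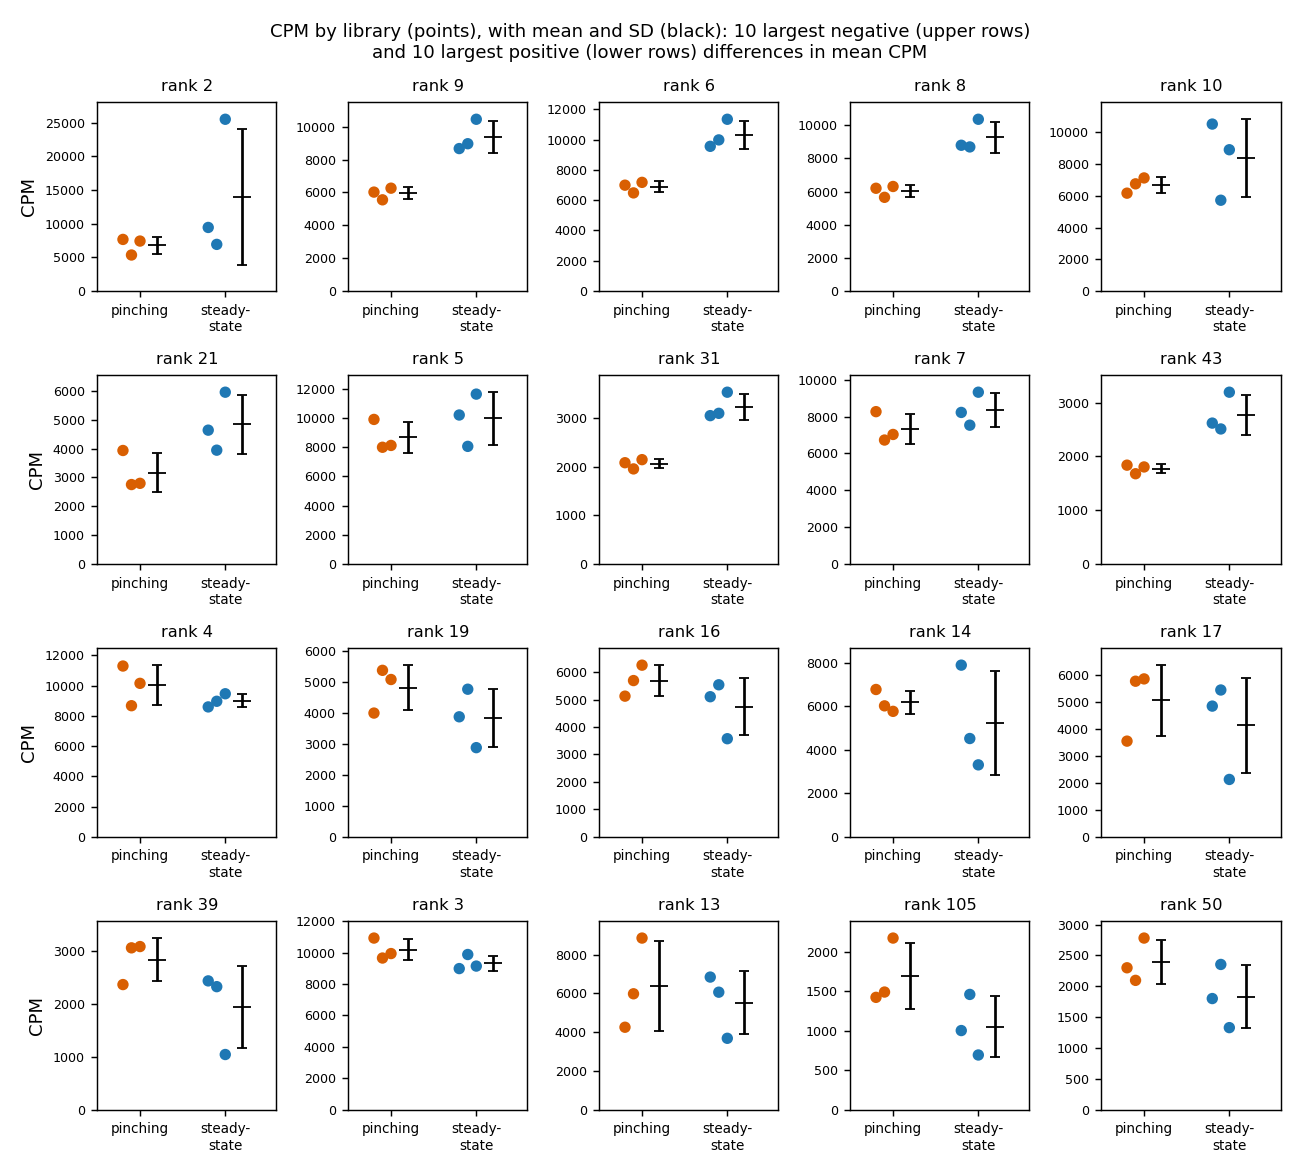
CPM (vertical axes, starting at 0) in each pinching library (orange) and steady-state library (blue) of the 10 members with the most negative (upper rows) and the 10 with the most positive (lower rows) difference in mean CPM, with the mean and SD of each group in black. Ranks 6, 8, 9, 21, 31 and 43 are lower in every pinching library, rank 2 is set apart by 1 steady-state library at 25515 CPM, and all 10 members of the lower rows overlap between the groups.

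The largest positive differences were smaller and overlapped throughout. NV2g020203000.1, at rank 4, measured 11291, 8669 and 10146.5 CPM in pinching libraries, against 8589, 8961 and 9458 CPM in steady-state libraries. Its edgeR log2 fold change was 0.11 (SE 0.17, adjusted p = 0.736). NV2g008740000.1, at rank 19, measured 3999, 5380.5 and 5084 CPM in pinching libraries, against 3879, 4770.4 and 2882 CPM in steady-state libraries. Its edgeR log2 fold change was 0.27 (SE 0.25, adjusted p = 0.589), and 0.03 without steady-state replicate 3, its lowest library.

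Steady-state replicate 3 was also the lowest library for ranks 39 and 105. Rank 39 measured 2359, 3051 and 3075 CPM in pinching libraries, against 2428, 2319.6 and 1041 CPM in steady-state libraries. Rank 105 measured 1424, 1491 and 2175 CPM in pinching libraries, against 1003, 1461 and 694 CPM in steady-state libraries, a log2 fold change of 0.63 (SE 0.33) and an edgeR adjusted p of 0.338. Without steady-state replicate 3 the log2 fold changes of ranks 39 and 105 were 0.13 and 0.34, against 0.49 and 0.63 with it. Of the 10 most positive members, 0 were separated between the groups, and 0 were called by either test. Ranks 3, 13, 14, 16, 17 and 50 complete the 10, with edgeR log2 fold changes of 0.08 to 0.33. Without steady-state replicate 3, 5 of the 10 turned negative (ranks 3, 13, 14, 16 and 17, at -0.15 to -0.01), and rank 50 was at 0.08. None of the 10 most negative changed sign without it.

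The most abundant transcript of all had overlapping values in the groups. It measured 19272, 15327.5 and 17262 CPM in pinching libraries, against 16354, 17372 and 17099 CPM in steady-state libraries. Its mean share of the counts was 1.73 ± 0.197% in pinching and 1.69 ± 0.0527% in steady-state animals (SD, n = 3 each; exact permutation p = 0.8). Its edgeR log2 fold change was -0.01 (SE 0.17, adjusted p = 0.967).

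The members varied widely in how stable they were. The highest library exceeded the lowest by 1.12 to 4.77 times, with a median of 1.47, and 27 members passed a ratio of 2. The most even transcripts, singled out after their values were seen, included rank 33, at 2746, 2445 and 2460.4 CPM in pinching libraries, against 2732, 2689 and 2674 CPM in steady-state libraries. Rank 122, chosen in the same way, was among the least even, at 928, 775 and 1976 CPM in pinching libraries, against 451, 1584 and 1968 CPM in steady-state libraries. Its variation lay within the groups, since its edgeR log2 fold change was -0.15 (SE 0.55).

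Within groups, the SD of log2 CPM had a median of 0.18 over the members, against 0.22 over all tested gene models. The coefficient of variation had a median of 9.13% in pinching and 14.1% in steady-state animals, and it was larger in steady-state animals for 135 of the 200 members. Member counts ran between 10743 and 576496 per library, so that counting error was 0.132 to 0.965% and below these spreads. The authors discarded reads with the same start and sequence as duplicates, a step that can limit the counts of abundant transcripts, and whether the deposited counts were taken before or after it is not given in the sources used here.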

How the data were processed

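Alignment by the authors used STAR 2.7.3a and the Nvec200 assembly, and the deposited values are raw counts for each gene model, not normalized. The program that made the counts and its use of strand are not given in the sources used here, so gene models that overlap or are nearly identical may share reads. Groups and replicate numbers came from the sample descriptions. CPM was computed over all 24525 gene models, of which 2097 had no count. R 4.3.3 was used, and tests covered the 21345 gene models with at least 3 summed counts. edgeR 4.0.16 (quasi-likelihood, TMM, group as the only term, adjusted p of at most 0.1) was the main test, and DESeq2 1.42.0 (the tool of the paper) and limma 3.58.1 (voom with sample weights) were alternatives. The scripts were tested on simulated data. Shares were compared by a two-sided exact permutation test over libraries. Intervals cover counting error only, since reads carry no molecular identifiers.

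The members and lists were chosen with earlier results of these data known. Members named were the 10 most abundant, those past the adjusted p, the 10 largest differences in mean CPM in each direction, and the 2 on either side of rank 200, with at most 2 identifiers printed in each direction. Of the identifiers, 0 matched the RefSeq gene table, so the lists of gene functions and cell type markers, and any sequences, were not used. Replicates were compared by a chi-square test of the members' counts, which per degree of freedom was 435 to 4990 between libraries, so no library was a resequencing of another within counting noise, which does not address repeat preparations of one RNA sample. The labels do not say that the libraries came from separate cultures, and p-values measure only the spread between these libraries. Alternatives covered the test, scaling, filter, threshold, number of members, replicate block and leaving out each library.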

Additional observations from a re-analysis of the deposited data

How the results depend on the processing

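In edgeR, 0 members were called under the other scalings, filters, robust spread, replicate block, stricter threshold, limma-voom and every left-out library. However, edgeR called 0 of all gene models with the filter at a mean of at least 3 counts and without each pinching replicate. A count of 0 members in those settings is therefore not a result about the members. In the other edgeR and limma-voom fits, calls over all gene models ran from 10 (without steady-state replicate 3) to 465 (replicate block). DESeq2 called 19 members. Among the 500 most abundant gene models edgeR called 1 lower, against 0.15% of all tested gene models. With DESeq2, the count ran from 9 to 32 when 1 library was left out. The members' median log2 fold change ran from -0.11 (without steady-state replicate 3) to 0.15 (without steady-state replicate 2). The difference in share held by the members was negative under every alternative except without the 10 most abundant gene models, where it was 0.314 points, and it ran from -1.51 to -0.11 points when 1 library was left out. Without rank 2, the difference was -1.19 points for the 10 most abundant and -1.08 points for the 50 most abundant. Members higher in every pinching library numbered 7 by CPM (3.5%), against 18.8% of all tested gene models. With TMM factors they numbered 0, against 14.6% of all tested gene models and 4% of the next 200 by mean CPM. With DESeq2 size factors they also numbered 0, and the share over all gene models is not given here. By CPM, 1 of the 100 and 45 of the 500 most abundant gene models were higher. With 1 library left out, 7 to 79 members were higher by CPM (3.5 to 39.5%), against 21.5 to 26.1% of all tested gene models. Members lower in every pinching library numbered 22 by CPM (11%), against 9.05% of all tested gene models. They numbered 29 with TMM factors (14.5%, against 11.3%) and 32 with DESeq2 size factors. By CPM, 13 of the 100 and 56 of the 500 most abundant gene models were lower. With 1 library left out, 24 to 37 members were lower by CPM (12 to 18.5%), against 10.8 to 18.8% of all tested gene models. At an unadjusted p under 0.05, edgeR placed 4 members higher with library size alone, 2 with the counts outside the members as library size, and 16 without steady-state replicate 2.

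Replicate numbers did not pair the libraries: deviations of same-numbered libraries correlated at 0.0632, 0.258 and -0.0417, and 3 of 6 libraries correlated best with their own number. With the replicate block, edgeR called 0 members, against 465 of all gene models (34 without). At an unadjusted p under 0.05 it put 19 members lower (21 without). DESeq2 called 18 members with the block, and the difference in share was -0.97 points (exact sign-flip permutation p = 0.75). Of the 23 named members, 15 kept the sign of their log2 fold change over 15 alternatives, and 7 passed the threshold under DESeq2 only. Scaling moved the median of all gene models by less than 0.1 on the log2 scale. The alternatives for DESeq2's count, for the unadjusted p-values, for the counts over all gene models without 1 library, for the 10 and 50 most abundant and for the spread were chosen after the data were seen. The members had at least 10743 counts in every library.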

Other observations

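The pair of members with the steadiest ratio across the 6 libraries, ranks 101 and 145, stood at 1.29 to 1.32, with an SD of the log2 ratio of 0.0114 against 0.0116 from counting alone. The next pair, ranks 20 and 94, had an SD of 0.012 against 0.00882 from counting. Over all 19900 pairs of members the median SD was 0.280. These pairs were picked from all of them after their values were seen, and their values share the same libraries. Identifier numbers at most 5 apart occurred in 14 pairs of members, against 11 pairs among ranks 201 to 400, and the correlation of log2 CPM in these pairs ran from -0.567 to 0.993 over 6 libraries.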
